A study of Homo sapiens with 6 samples.

Results

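The CYP4F fatty-acid hydroxylases were followed here through 4 genes, CYP4F2, CYP4F3, CYP4F11 and CYP4F12. Every array probe that the platform annotation assigns to one of them was taken, which gave 7 of the 47319 probes on the array: 2 for CYP4F2, 3 for CYP4F3 and 1 each for CYP4F11 and CYP4F12. The genes were selected on values of the antagomiR-638 arrays against the mock arrays, so their levels in those 2 groups are given as a description, with no test. RNA came from SK-Mel-147, an established human melanoma cell line, and was hybridised to 6 Illumina HumanHT-12 v4 arrays 48 h after transfection. The 3 groups had 2 arrays each: cells given antagomiR-638, an oligonucleotide built to bind and block the microRNA miR-638, cells given miR-638 itself, and mock control cells. The treatment of the control cells is described in 3 ways, as mock transfection in the sample titles, as a non-targeting control in the series description and as a control antagomiR in a legend of the study. All 3 groups came from the same cell line, and no source used here says whether the 2 arrays of a group came from separate cultures, so p-values measure only the spread between these arrays, which may be technical.

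CYP4F enzymes are haem-containing monooxygenases of the endoplasmic reticulum. With electrons passed on by the cytochrome P450 reductase POR, they add a hydroxyl group to the far (omega) end of fatty-acid chains, and the product can be oxidised further to a dicarboxylic acid. CYP4F3 is best known from neutrophils, where it inactivates the inflammatory lipid leukotriene B4, and CYP4F2 from liver and kidney, where it hydroxylates arachidonic acid and the side chains of vitamin E and vitamin K. CYP4F11 and CYP4F12 are close relatives, described mostly in liver and in the gut, and the genes lie in one cluster on chromosome 19.

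The transfected microRNA and the promoters of the genes are shown first, the one as the agent tested and the others because the genes are neighbours of similar sequence. The mature miR-638 sequence, from RefSeq (GRCh38.p14, chr19:10718419-10718443, plus strand), is given 5′ to 3′ with its seed, bases 2 to 8, in capitals.
hsa-miR-638: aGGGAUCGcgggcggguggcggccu
The promoter windows come from RefSeq on the same build. CYP4F2 has 1 window (chr19:15898025-15898324, minus strand), CYP4F3 has 1 (chr19:15641062-15641361, plus strand) and CYP4F11 has 2 (chr19:15934818-15935117 and chr19:15934480-15934779, both minus strand); CYP4F12 was not matched. They read 5′ to 3′ along the gene, and capitals mark matches to the CCAAT box (CCAAT, on the opposite strand ATTGG) and to the AP-1 site (TGANTCA).
CYP4F2 promoter: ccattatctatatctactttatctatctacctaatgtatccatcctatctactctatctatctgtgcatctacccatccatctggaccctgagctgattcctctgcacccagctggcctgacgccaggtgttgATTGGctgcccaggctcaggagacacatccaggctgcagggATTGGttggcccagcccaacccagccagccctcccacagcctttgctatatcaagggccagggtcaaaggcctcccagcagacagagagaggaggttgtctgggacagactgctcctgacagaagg
CYP4F3 promoter: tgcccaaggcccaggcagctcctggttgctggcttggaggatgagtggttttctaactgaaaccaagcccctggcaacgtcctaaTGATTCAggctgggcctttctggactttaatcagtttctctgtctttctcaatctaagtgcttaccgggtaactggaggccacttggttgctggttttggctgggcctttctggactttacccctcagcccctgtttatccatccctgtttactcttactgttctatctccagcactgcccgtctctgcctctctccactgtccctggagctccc
CYP4F11 promoter 1: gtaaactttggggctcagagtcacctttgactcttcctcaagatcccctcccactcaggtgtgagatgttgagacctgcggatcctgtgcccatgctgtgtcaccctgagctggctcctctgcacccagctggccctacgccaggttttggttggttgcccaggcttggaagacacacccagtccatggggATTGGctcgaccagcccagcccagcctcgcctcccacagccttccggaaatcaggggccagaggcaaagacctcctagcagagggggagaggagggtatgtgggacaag
CYP4F11 promoter 2: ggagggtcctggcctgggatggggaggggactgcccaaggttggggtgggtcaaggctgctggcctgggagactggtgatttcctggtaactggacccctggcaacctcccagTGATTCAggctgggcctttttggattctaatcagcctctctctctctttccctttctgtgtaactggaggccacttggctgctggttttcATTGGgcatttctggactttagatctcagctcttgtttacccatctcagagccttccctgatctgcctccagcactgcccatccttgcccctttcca
The CYP4F2 window held 2 CCAAT boxes, starting at -117 and -76 from the annotated start. The CYP4F3 window held none, and its single match was an AP-1 site at -165. CYP4F11 had a CCAAT box in each window, at -59 and -47, and its second window also held an AP-1 site at -137 and an interferon response element core (GAAANNGAAA) at -91. Matches were searched on both strands, and over all 35116 RefSeq windows of this length a CCAAT box was found in 34.6%, an AP-1 site in 7.71% and the interferon core in 3.57%. The TATA box (TATAAA, 11.5% of all windows), the GC box (GGGCGG, 45%), the nuclear receptor half-site (AGGTCA, 13.8%) and the p53 half-site (6.63%) were in none of these 4 windows. In a global alignment the CYP4F2 window was most like the first CYP4F11 window, with 73% of 281 aligned bases identical, and the CYP4F3 window was most like the second, with 78.1% of 265. CYP4F2 and CYP4F3 shared 62.8% of 234 aligned bases.

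Of the 7 probes, 3 passed the filter on low signal, which asks that both arrays of 1 group or more have a detection p under 0.05, compared with 20145 of all 47319 probes. All 3 passed through the antagomiR-638 arrays. CYP4F2 and CYP4F3 each had a probe that was bright with antagomiR-638 and near background elsewhere, while CYP4F11 and CYP4F12 had no kept probe. Intensities are the deposited linear values, from which background has been subtracted, so that a probe without signal lies around 0. On these arrays, the lowest signal of any detected probe lay between 6.83 and 7.87.

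For CYP4F2, probe ILMN_2178492 read 211 and 176 with antagomiR-638, 6.87 and 15.3 with miR-638, and 5.11 and 3.04 in mock cells. It was detected on both antagomiR-638 arrays, on 1 miR-638 array and on neither mock array. The means were 194 ± 24.7 with antagomiR-638, 11.1 ± 5.98 with miR-638 and 4.08 ± 1.46 in mock cells (SD, n = 2 each). The antagomiR-638 arrays thus stood apart from all 4 others. On the log2 scale, after the normexp background model and its offset of 16, antagomiR-638 minus mock was 3.28 ± 0.157 (SE). Because neither mock array detected the probe, this is given as at least 8.79-fold higher, against the lowest log2 signal among detected probes of each mock array. That bound holds on the scale with this offset.

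The other CYP4F2 probe, ILMN_1729439, did not follow it, although the platform annotation assigns both to the same RefSeq transcript. It read 1.06 and 5.18 with antagomiR-638, 6.97 and 8.26 with miR-638, and 7.36 and 4.81 in mock cells. It was detected on 1 miR-638 and 1 mock array, with detection p of 0.0364 and 0.0468, and on no antagomiR-638 array. Its antagomiR-638 values lay within or below those of the mock cells.

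The brightest CYP4F3 probe, ILMN_1736190, read 206 and 217 with antagomiR-638, 4.29 and 4.94 with miR-638, and 9.95 and 5.98 in mock cells. It was detected on both antagomiR-638 arrays, on no miR-638 array and on 1 mock array (detection p 0.0130). Means were 211 ± 7.32 with antagomiR-638, 4.62 ± 0.456 with miR-638 and 7.96 ± 2.81 in mock cells (SD, n = 2 each). As for CYP4F2, only the antagomiR-638 arrays were high. AntagomiR-638 minus mock was 3.22 ± 0.120 on the log2 scale (SE); the mock level behind it was measured on 1 of 2 arrays, so no fold is given.

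A further CYP4F3 probe, ILMN_3251260, was dim. It read 16.5 and 8.65 with antagomiR-638, 2.25 and 13.7 with miR-638, and 2.48 and 1.74 in mock cells. Both antagomiR-638 arrays and 1 miR-638 array passed detection, and the antagomiR-638 and miR-638 arrays overlapped. AntagomiR-638 minus mock was 0.47 ± 0.187 on the log2 scale (SE), given as at least 1.19-fold higher on the scale with the offset of 16. The last CYP4F3 probe, ILMN_2089484, read -4.12 and 0.681 with antagomiR-638, 3.40 and -1.91 with miR-638, and -1.17 and 7.83 in mock cells, and was detected on 1 mock array only. All 3 CYP4F3 probes are annotated to the same RefSeq transcript, and ILMN_1736190 was the only bright one. Probe sequences were not used here, and whether a probe binds transcripts of a related CYP4F gene was not tested.

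No signal was detected for CYP4F11 or CYP4F12 on any array. The CYP4F11 probe ILMN_1719883 read 0.401 and -3.32 with antagomiR-638, -6.46 and 0.0538 with miR-638, and -3.29 and 5.90 in mock cells. The CYP4F12 probe ILMN_1809384 was below 0 on all 6 arrays, at -2.55 and -3.13 with antagomiR-638, -5.79 and -2.94 with miR-638, and -1.48 and -6.87 in mock cells. Both groups of readings are those of probes without signal, and a level under the detection limit cannot be told from absence.

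**Figure D1:**
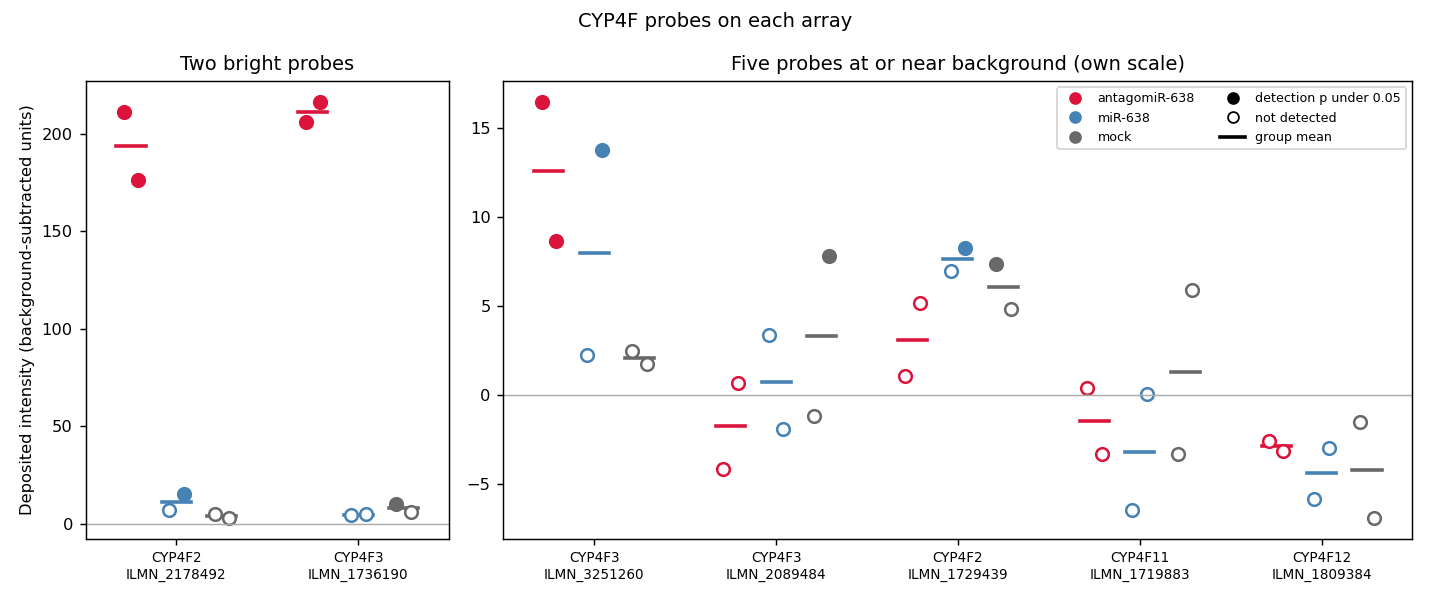
Deposited intensity (background-subtracted linear units) of the 7 CYP4F probes, with 1 point per array, a bar at each group mean of 2 arrays, and groups running from antagomiR-638 through miR-638 to mock. The left panel holds the CYP4F2 and CYP4F3 probes that reached 176 to 217 with antagomiR-638 and stayed at 15.3 or lower elsewhere, and the right panel, on its own scale, holds the other 5, none above 16.5; filled points have a detection p under 0.05.

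The plot of intensity by array also shows that the 2 bright probes did not rank the antagomiR-638 arrays alike, with replicate 1 the higher for CYP4F2 and replicate 2 the higher for CYP4F3. Between the antagomiR-638 and mock arrays, 8.78% of all 20145 kept probes were called by limma at an adjusted p of 0.01 or less, and nothing is read from that share for the CYP4F genes, which this contrast was used to choose. The size of their log2 differences depends on the offset, since the mock level was at or near background. With the offset raised to 50, the log2 differences of the bright probes came to 2.13 for CYP4F2 and 2.16 for CYP4F3, and with a plain floor at 16 to 3.59 and 3.72. For the dim CYP4F3 probe ILMN_3251260 the difference came to 0.20 with the offset of 50 and 0.02 with the floor.

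**Figure D2:**
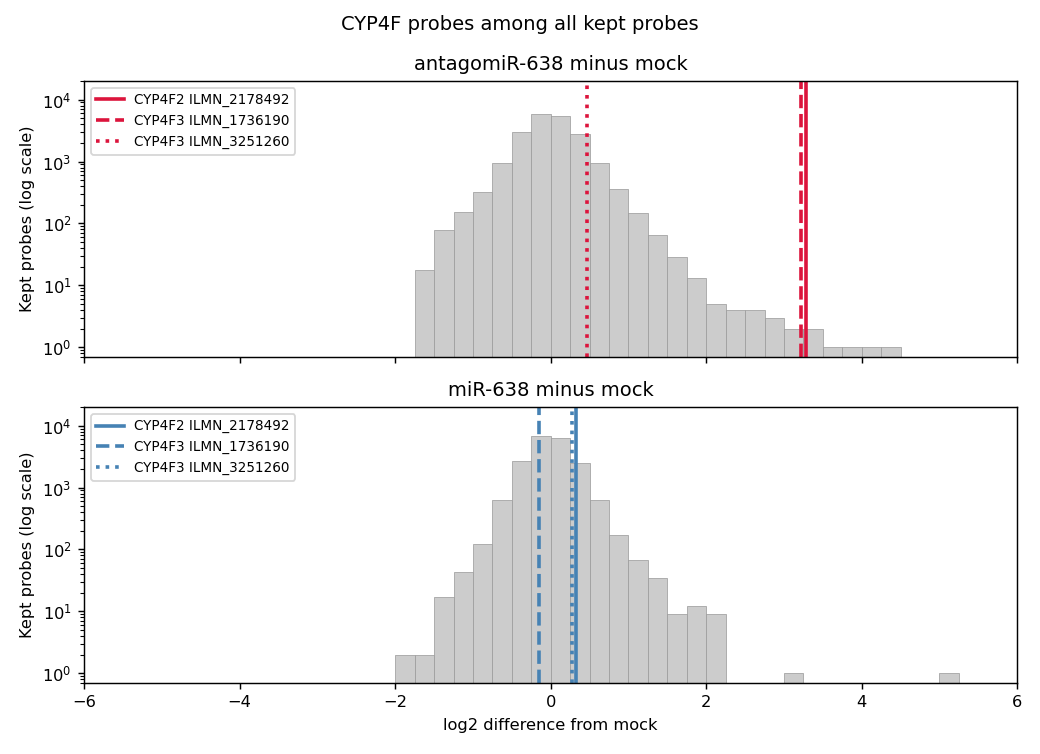
Histograms of the log2 difference from mock over all 20145 kept probes (number of probes on a log axis), for antagomiR-638 above and miR-638 below, with vertical lines at the 3 kept CYP4F probes. With antagomiR-638 the CYP4F2 line at 3.28 and a CYP4F3 line at 3.22 lie in the far right tail, whereas with miR-638 all 3 lines lie between -0.16 and 0.33.

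Whether miR-638 itself moved these genes was tested with limma over all kept probes. The mock arrays were also used to choose the genes, and earlier results of these data were known at that point. All 3 kept probes passed the filter only through the antagomiR-638 arrays, so the test is not independent of that choice. Each of the 3 kept probes was detected on only 1 of the 4 miR-638 and mock arrays, so the comparison was made mostly between background readings and could show little. At 2.36% of all kept probes called, 0 of these 3 was called, and 0 had an unadjusted p under 0.05, against 5149 of 20145. CYP4F2 ILMN_2178492 differed by 0.33 on the log2 scale, miR-638 minus mock, with a 95% confidence interval of -0.02 to 0.68 and a limma adjusted p of 0.227. The interval for CYP4F3 ILMN_1736190, at -0.16, ran from -0.42 to 0.11 (limma adjusted p = 0.458), and that for CYP4F3 ILMN_3251260, at 0.27, from -0.15 to 0.69 (limma adjusted p = 0.405). Since the mock level was at or near the detection limit, a fall below it could not have been measured for any of these probes.

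Set against antagomiR-638, the miR-638 arrays were lower for both bright probes, by a log2 difference of -2.95 for CYP4F2 and of -3.38 for CYP4F3 ILMN_1736190. ILMN_1736190 was undetected with miR-638, so its difference is given as at least 9.55-fold lower. ILMN_3251260 differed by -0.20, with overlapping arrays. These values rest on the same antagomiR-638 arrays that chose the genes and were not tested.

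The remaining cytochrome P450 genes were counted against all genes. Of 53 others on the array, 13 had a kept probe, and with antagomiR-638 only CYP4V2 was called: 1 of 13 rose, against 5.83% of all 11501 genes, and 0 of 13 fell, against 4.78%. The median log2 difference of the 13 was 0.05, compared with 0.013 over all genes. With miR-638, 1 of 13 rose (CYP4B1), against 1.93% of all genes, and none fell, against 1.13%; at an unadjusted p under 0.05, 2 of the 13 were higher and 4 lower, against 5149 of all 20145 kept probes in either direction. The median was 0.12, compared with 0.0015 over all genes.

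CYP4V2, an omega-hydroxylase of fatty acids that is mutated in Bietti crystalline corneoretinal dystrophy, read 288 and 222 with antagomiR-638, 141 and 166 with miR-638, and 121 and 121 in mock cells. Both antagomiR-638 arrays were the highest, and antagomiR-638 minus mock was 0.98 ± 0.145 (SE) on the log2 scale, with a limma adjusted p of 0.00195. The call did not survive leaving out either mock array or the first antagomiR-638 array (limma adjusted p = 0.0138 to 0.0246). CYP4B1, a family member that acts on short fatty acids and on foreign compounds, read 25.0 and 29.2 with antagomiR-638, 141 and 131 with miR-638, and 50.6 and 40.6 in mock cells. Here the miR-638 arrays were high and the antagomiR-638 arrays low. It rose by 1.31 ± 0.129 (SE) with miR-638 (limma adjusted p = 0.000702), a call lost without either miR-638 array (limma adjusted p = 0.0112 and 0.0122), and its difference with antagomiR-638 was -0.51 (limma adjusted p = 0.0221). Between miR-638 and antagomiR-638 it differed by 1.82 (limma adjusted p = 4.15e-05), in a comparison where 15.8% of all genes were called. CYP2J2, an enzyme that makes epoxides of arachidonic acid, differed by 0.56 with antagomiR-638 (limma adjusted p = 0.0249), which missed the threshold. The other 6 named CYP4 genes, CYP4A11, CYP4A22, CYP4F8, CYP4F22, CYP4X1 and CYP4Z1, had no kept probe.

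**Figure D3:**
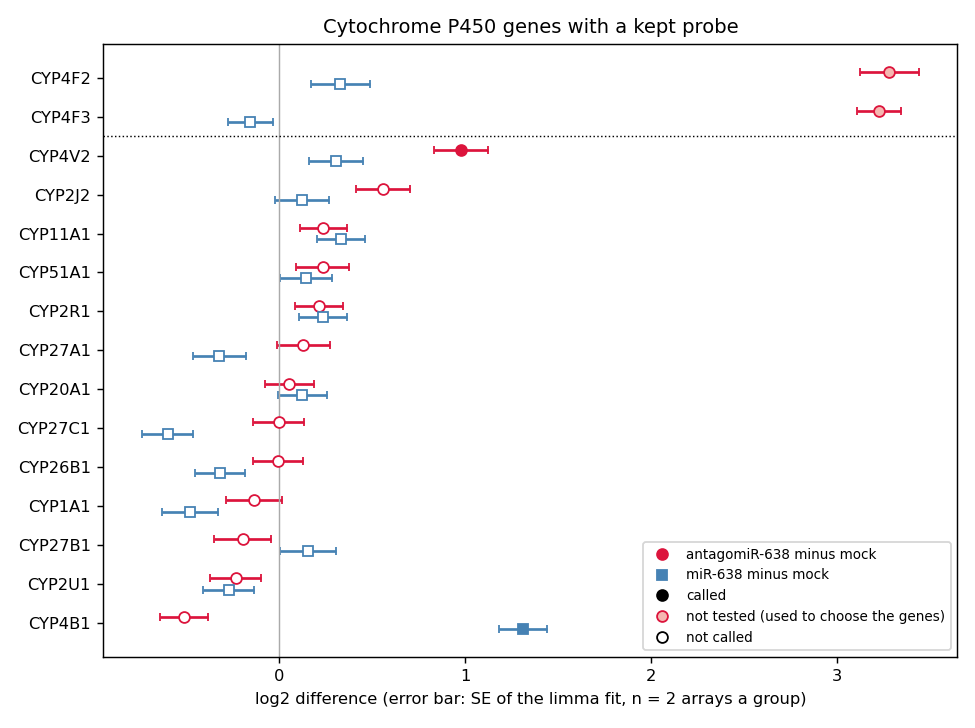
Log2 difference from mock of the cytochrome P450 genes with a kept probe, by antagomiR-638 (circles) and miR-638 (squares), with bars of 1 SE from the limma fit (n = 2 arrays a group). Each gene is shown by its brightest kept probe, and the dim CYP4F3 probe ILMN_3251260, at 0.47 with antagomiR-638, is not drawn. CYP4F2 and CYP4F3, above the dotted line, lie at 3.28 and 3.22 with antagomiR-638, whereas the 13 other genes lie between -0.51 and 0.98. Filled symbols were called and pale red ones were not tested.

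Position was not used to choose the genes. In the RefSeq order, CYP4F3 and CYP4F12 lie together at one end of the cluster and CYP4F2 and CYP4F11 at the other, with 6 further genes that have a named probe between them. Of these 6, 4 olfactory receptor genes and the pseudogene CYP4F24P had no kept probe. The sixth, the long non-coding RNA UCA1, read 150 and 165 with antagomiR-638, 146 and 137 with miR-638, and 116 and 87.3 in mock cells. Its log2 difference was 0.57 with antagomiR-638 (limma adjusted p = 0.0219) and 0.43 with miR-638 (limma adjusted p = 0.0962), and neither was called.

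Of the 20 nearest genes with a named probe, 10 on each side, 10 had a kept probe. With antagomiR-638, 0 of 10 rose, against 5.83% of all genes, and 1 fell, against 4.78%, with a median log2 difference of -0.17. With miR-638 none was called, against 1.93% of all genes higher and 1.13% lower, and the median was -0.10. Counts among 10 genes are too small to set the neighbours apart from all genes. CYP4F8 and CYP4F22, the CYP4F genes next in line, had no kept probe. The gene that fell was TPM4, which encodes a tropomyosin of actin filaments. It read 153 and 203 with antagomiR-638, 330 and 320 with miR-638, and 367 and 319 in mock cells. AntagomiR-638 minus mock was -0.90 ± 0.147 (SE) on the log2 scale, with a limma adjusted p of 0.00321, and leaving out either mock array or the first antagomiR-638 array ended the call (limma adjusted p = 0.0136 to 0.0351).

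**Figure D4:**
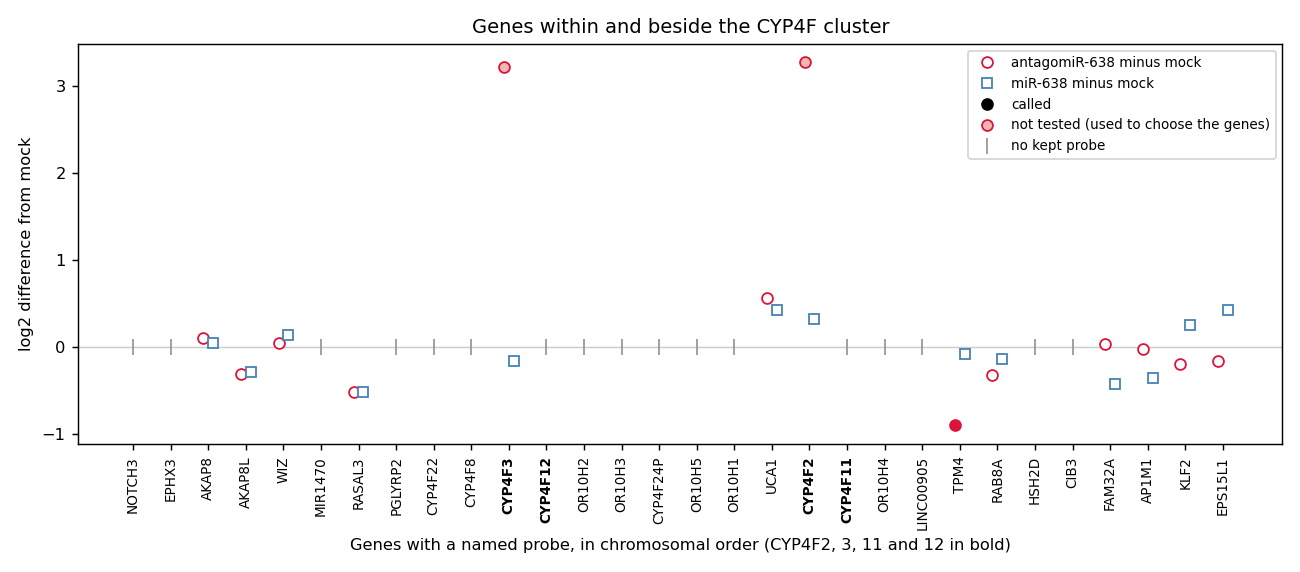
Log2 difference from mock of the 30 genes with a named probe within and beside the CYP4F cluster, in chromosomal order and not to distance, by antagomiR-638 (circles) and miR-638 (squares); grey ticks mark genes with no kept probe. Each gene is shown by its brightest kept probe. CYP4F3 and CYP4F2 stand at 3.22 and 3.28 with antagomiR-638, while the 10 outer neighbours with a kept probe lie between -0.90 and 0.11 with antagomiR-638. The filled circle, TPM4, was called and the pale red ones were not tested.

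Redox partners pass electrons to cytochrome P450 enzymes, and all 7 such genes on the array had a kept probe. Among them, FDX1 and FDX2 are mitochondrial ferredoxins and do not serve the CYP4F enzymes. With these included, 1 of 7 rose with antagomiR-638, against 5.83% of all genes, and 1 of 7 fell with miR-638, against 1.13%. POR, the direct electron donor, read 30.5 and 10.2 with antagomiR-638, 24.4 and 14.0 with miR-638, and 11.8 and 13.2 in mock cells, with overlap and a log2 difference of 0.30 for antagomiR-638 (limma adjusted p = 0.416). CYB5R1, a cytochrome b5 reductase, read 999 and 980 with antagomiR-638, 742 and 729 with miR-638, and 608 and 569 in mock cells. It rose by 0.74 ± 0.112 (SE) with antagomiR-638 (limma adjusted p = 0.00222), a call lost without either mock or either antagomiR-638 array (limma adjusted p = 0.0110 to 0.0265). CYB5R3, the main reductase of cytochrome b5, read 4921 and 5018 with antagomiR-638, 1913 and 1884 with miR-638, and 3603 and 3915 in mock cells. The miR-638 arrays were the low ones, and miR-638 minus mock was -0.98 ± 0.113 (SE; limma adjusted p = 0.00144). That call was lost without mock replicate 2 or either miR-638 array (limma adjusted p = 0.0175 to 0.0189).

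Genes that make, transport or break down the lipids on which CYP4F enzymes act were also counted. Of 28 such genes with a kept probe, 2 rose with antagomiR-638, against 5.83% of all genes, and none fell, against 4.78%. Their median log2 difference was 0.19. With miR-638 none was called, against 1.93% of all genes higher and 1.13% lower, and the median was -0.05. Counts this small do not set these 28 genes apart from all genes. At an unadjusted p under 0.05, 9 were higher and 2 lower with antagomiR-638, against 7093 of all 20145 kept probes in either direction, and 2 were higher and 4 lower with miR-638, against 5149. The leukotriene and prostanoid genes made up 13 of these and none of the 13 was called in either comparison. Among them, LTA4H, which forms leukotriene B4, read 1269 and 1254 with antagomiR-638, 1342 and 1210 with miR-638, and 1304 and 1150 in mock cells. The groups overlapped, and the log2 difference was 0.04 with antagomiR-638 (limma adjusted p = 0.836). PTGR1, a reductase that also inactivates leukotriene B4, differed by 0.39 with antagomiR-638 (limma adjusted p = 0.0410), which missed the threshold.

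The other 15 genes were listed for the oxidation that follows omega-hydroxylation, and both called genes were aldehyde dehydrogenases. ALDH1A3, known for making retinoic acid from retinal and not for acting on omega-hydroxylated chains, read 10877 and 11510 with antagomiR-638, 6336 and 6115 with miR-638, and 4759 and 4900 in mock cells. It rose by 1.21 ± 0.112 (SE) with antagomiR-638 (limma adjusted p = 0.000195), and stayed called under every alternative run here except the one-way F test without moderation, with a highest limma adjusted p of 0.00553. ALDH3B1, which oxidises medium- and long-chain aldehydes, read 101 and 103 with antagomiR-638, 31.1 and 21.6 with miR-638, and 51.1 and 59.1 in mock cells. It rose by 0.73 ± 0.139 (SE) with antagomiR-638 (limma adjusted p = 0.00631), a call lost without either mock or either antagomiR-638 array (limma adjusted p = 0.0241 to 0.0521). With miR-638 its difference was -0.76 (limma adjusted p = 0.0124). ALDH3A2, the fatty aldehyde dehydrogenase mutated in Sjögren-Larsson syndrome, differed by 0.16 with antagomiR-638 (limma adjusted p = 0.334).

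Vitamin K is a substrate of CYP4F2, and 5 genes of vitamin K and vitamin E handling had a kept probe. With antagomiR-638, 1 of 5 fell, against 4.78% of all genes. With miR-638 none was called, against 1.93% of all genes higher and 1.13% lower. VKORC1L1, a paralog of the vitamin K epoxide reductase, read 73.7 and 74.0 with antagomiR-638, 141 and 124 with miR-638, and 150 and 136 in mock cells. It fell by 0.82 on the log2 scale with antagomiR-638 (SE 0.120, limma adjusted p = 0.00178), a call lost without either mock or either antagomiR-638 array (limma adjusted p = 0.0103 to 0.0228). VKORC1, the reductase that warfarin inhibits, differed by -0.15 (limma adjusted p = 0.389).

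Nuclear receptors and sterol-regulated factors control many P450 genes. Of 11 listed regulators with a kept probe, 1 rose with antagomiR-638, against 5.83% of all genes, and 1 fell, against 4.78%. The 11 include AHR and PPARGC1A, which belong to neither class. Their median log2 difference with antagomiR-638 was 0.09, compared with 0.013 over all genes. With miR-638, 1 fell, against 1.13% of all genes, and 0 rose, against 1.93%. The 11 log2 differences with miR-638 ran from -0.70 to -0.09, with a median of -0.29, compared with 0.0015 over all genes. At an unadjusted p under 0.05, 4 of the 11 were lower and 0 higher, against 5149 of all 20145 kept probes in either direction. The 11 genes were not tested as a set. RARB, a retinoic acid receptor, read 394 and 392 with antagomiR-638, 186 and 236 with miR-638, and 224 and 233 in mock cells. It rose by 0.75 ± 0.133 (SE; limma adjusted p = 0.00462) with antagomiR-638. SREBF1, the regulator of fatty-acid synthesis genes, read 93.6 and 90.4 with antagomiR-638, 124 and 150 with miR-638, and 175 and 157 in mock cells, and fell by 0.75 on the log2 scale with antagomiR-638 (SE 0.129, limma adjusted p = 0.00388). Both calls were lost without either mock or either antagomiR-638 array (limma adjusted p = 0.0273 to 0.0458 for RARB and 0.0180 to 0.0368 for SREBF1). PPARG, the fatty-acid receptor of adipose cells, read 256 and 285 with antagomiR-638, 200 and 207 with miR-638, and 328 and 355 in mock cells. It fell by 0.70 on the log2 scale with miR-638 (SE 0.118, limma adjusted p = 0.00867), a call lost when any of the 6 arrays was left out (limma adjusted p = 0.0213 to 0.0692).

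The genes whose pattern over the 6 arrays was most like that of each bright probe were also high on the 2 antagomiR-638 arrays alone. For CYP4F2, Pearson's r over the 6 arrays against the 11499 genes other than CYP4F2 and CYP4F3 was highest for RNF4BP, at 0.9997, followed by SPG11, ACTA2, GAMT and BIVM, at 0.9979 to 0.9989. Their log2 differences for antagomiR-638 minus mock ran from 0.65 for BIVM to 1.64 for ACTA2, the actin of smooth muscle. For CYP4F3, the nearest were LAMB2 (r = 0.9993), a laminin chain, CHMP2A, P4HA2, a prolyl hydroxylase of collagen, IFIT3, an interferon-induced gene, and RSPH3. IFIT3 differed by 2.62 with antagomiR-638 and the other 4 by 0.65 to 0.88. CYP4F2 and CYP4F3 correlated with each other at r = 0.987, and 83 other genes lay closer to each of them. These coefficients describe a contrast of 2 arrays with 4, in 1 cell line.

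The cell type was checked with marker genes. Of 7 melanocyte markers on the array, the lineage regulators MITF and SOX10 were detected on all 6 arrays, and MLANA, PMEL, S100B, TYR and TYRP1 on none. Since CYP4F2 is an enzyme of liver cells and CYP4F3 of neutrophils, markers of both were looked at. Of 8 hepatocyte markers ALB and SERPINA1 were detected on all arrays, and the summed intensity of the list was 51.4 to 60.1 with antagomiR-638, 58.3 to 72.4 with miR-638 and 41.2 to 51.8 in mock cells, with AHSG, APOA1, APOB and TF detected on no array. Of 8 neutrophil markers only FCGR3B had a kept probe, and the list summed to 29.9 to 32.4 with antagomiR-638, 29.3 to 42.1 with miR-638 and 26.7 to 42.9 in mock cells. No kept gene of these 3 lists was called in either comparison, against 8.78% of all kept probes with antagomiR-638 and 2.36% with miR-638. Each array detected 41.8% to 44.1% of the probes, and replicate arrays correlated at r = 0.994 to 0.995 over kept probes.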

How the data were processed

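Transcripts of 6 SK-Mel-147 samples were measured with Illumina HumanHT-12 v4 BeadChips. Per the labels, the authors normalized with the R package lumi, version not given. The deposited intensity values are linear, background-subtracted (26.2% lie below 0) and already quantile-normalized, with sorted columns that differ by at most 0.349, which hides any shift shared by all transcripts. Detection p-values, deposited for every probe and array, move in steps of 1 in 770. A second table deposited by the authors, of processed intensity, served as an alternative.

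From the deposited intensities, the normexp model of limma 3.58.1 in R 4.3.3 was run with detection p-values and an offset of 16, then quantile normalization and log2. Acting on noise around 0, it draws fold changes of dim probes toward 0. Probes were kept where both arrays of 1 group or more had a detection p under 0.05, and the kept probe of highest mean log2 stood for its gene. Group means were fitted to all 6 arrays (3 residual and 6.31 prior degrees of freedom), with two-sided p-values adjusted over all 20145 kept probes by the Benjamini-Hochberg method and called at 0.01 or less. No p is given for the CYP4F genes in a difference that includes the antagomiR-638 arrays. Those arrays do enter the shared estimate of spread behind the miR-638 tests. The number of arrays limits the precision. Gene names came from the platform table (1 symbol for 30112 of 47319 probes, several for 8, none for 17199), updated through Entrez identifiers matched to RefSeq for 30073.

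Bounds on folds use, per array, the lowest log2 signal among detected probes, or the probe's own where higher. The genes and lists were chosen with earlier results of these data known. The text names every CYP4F probe, up to 4 called genes of largest change per list and genes whose role is described, and the 5 genes most correlated with each bright probe. The limma step was tested on simulated data. Alternatives changed the background step, scaling, filter, threshold, test, arrays in the fit and the replicate block, or dropped arrays one at a time.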

Additional observations from a re-analysis of the deposited data

How the results depend on the processing

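With miR-638, 0 CYP4F probes were called in each of the 15 alternatives run, those with 1 array left out included, in a comparison made mostly between background readings. With a floor at 16 on either table, miR-638 minus mock was 0 for all 3 kept probes, so no call was possible there. A filter at a detection p under 0.01 dropped CYP4F3 ILMN_3251260. The median log2 difference of the kept CYP4F probes for antagomiR-638 minus mock, 3.22, was 3.59 with a floor at 16, on the deposited intensities and on the series matrix values alike, 2.13 with an offset of 50, and 0.016 without the filter, where all 7 probes enter. Leaving out 1 array gave 1.80 to 3.22, the median then falling between a bright and a dim probe where the number kept was even. With antagomiR-638, the 1 other P450 gene and the 1 neighbour called became 0 and 0 with a floor at 16 on either table, without the filter and by the one-way F test without moderation, and 0 to 1 each with 1 array left out; at an adjusted p under 0.05, 3 P450 genes were called. The 2 fatty-acid and eicosanoid genes became 1 with a floor at 16 on either table and without the filter, 0 by the F test, 7 at an adjusted p under 0.05 and 1 to 2 with 1 array left out. Over all probes, the 1768 calls for antagomiR-638 against mock became 287 with a floor on either table, 1049 without the filter, 4158 at an adjusted p under 0.05, 0 by the F test and 371 to 1461 with 1 array left out. The 475 calls for miR-638 against mock became 26, 176, 1817, 0 and 36 to 200 in the same order, 977 with an offset of 50 and 206 with only the 2 groups compared.

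The replicate numbers showed no sign of pairing the arrays, as deviations of same-numbered arrays correlated at -0.069 to -0.054. No source used here describes a pairing. With the replicate number as a block, 1 fatty-acid and eicosanoid gene stayed called with antagomiR-638 and 280 probes with miR-638. With 1 array left out, its group's lone array is assumed to vary like the others. The one-way F test asked whether the 3 groups differed at all. Its 0 is therefore the same count in both comparisons and tests neither of them alone. The cause of the shifts between alternatives was not tested. The bright probes' antagomiR-638 signal was far above the detection limit, whereas the mock level of both lay at or near it. Their folds, lower bounds included, therefore depend on the offset.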
